A study of Mus musculus with 2 samples.

Results

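The fibroblast growth factor (FGF) ligands are a family of secreted signals, and 9 of its genes are described here: Fgf1, Fgf2, Fgf5, Fgf7, Fgf10, Fgf18, Fgf20, Fgf21 and Fgf22. A probe was taken as belonging to one of them when its RefSeq accession did, which gave 12 probes, out of 26580 probes that received the name of 1 of 20144 genes. Fgf1, Fgf18 and Fgf20 had 2 probes each and the other 6 ligands 1 each. RNA had been hybridised to 1-colour Agilent arrays, 1 array for each of 2 groups of primary keratinocytes from mice, the cells that build the epidermis. The groups are labelled Rac1Rac3-DKO and, as the control, Rac3-KO, so a lack of Rac3 is common to both, and the cells of both are labelled P3. Rac1 and Rac3 are small GTPases that control actin and cell shape. The labels do not explain P3, name no strain, deleted exon or Cre driver, and do not say how many animals gave each sample. The series title concerns signals that keratinocytes send, depending on Rac, to the fat cells of the dermis. With 1 array per group no difference had a replicate check, no test between the groups was possible, and precision is limited by the number of arrays.

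FGF ligands bind tyrosine kinase receptors at the cell surface together with heparan sulfate. Fgf7, Fgf10 and Fgf22 act mainly on the epithelial form of the receptor Fgfr2, so that mesenchymal cells can instruct the epidermis and hair follicle through Fgf7 and Fgf10. Signals also run from the epithelium to the dermis, as with Fgf20 of the hair placode, while Fgf21 is an endocrine member that needs the co-receptor beta-klotho (Klb) and is known for its action on fat tissue. Active receptors raise transcription of feedback inhibitors and of the ETS factors Etv4 and Etv5.

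Fgf2 (higher on the array labelled DKO) and Fgf21 (lower) lay past 2-fold relative to the 75th percentile of each array. Neither reached 2-fold with normexp background correction, and on the spike-in scale both were lower. The 300 bases around the annotated start of each gene (RefSeq, GRCm38.p6, 250 before the start and 50 after it) are shown as context for them. Capitals mark every match to 5 motifs, namely the TATA box (TATAAA), the CCAAT box, the GC box (GGGCGG), the E-box (CACGTG) and the core of the amino acid response element (TGATGNAA), searched on both strands.

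Fgf21, chr7:45615441-45615740, minus strand: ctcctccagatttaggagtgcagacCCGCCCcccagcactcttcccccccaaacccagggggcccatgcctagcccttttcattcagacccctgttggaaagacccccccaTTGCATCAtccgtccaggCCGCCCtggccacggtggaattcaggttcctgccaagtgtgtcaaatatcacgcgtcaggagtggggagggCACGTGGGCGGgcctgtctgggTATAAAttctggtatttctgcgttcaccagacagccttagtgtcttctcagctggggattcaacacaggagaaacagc

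Fgf2, chr3:37348403-37348702, plus strand: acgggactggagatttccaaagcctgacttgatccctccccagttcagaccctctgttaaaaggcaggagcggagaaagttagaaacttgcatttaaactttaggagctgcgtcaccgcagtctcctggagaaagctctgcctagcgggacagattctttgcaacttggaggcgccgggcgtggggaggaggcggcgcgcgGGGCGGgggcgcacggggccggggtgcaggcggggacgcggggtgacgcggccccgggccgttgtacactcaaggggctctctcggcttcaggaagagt

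The Fgf21 window holds a TATA box 28 bases before the start, an E-box 50 bases before it, which shares its last base with a GC box, and the letters TTGCATCA 139 bases before it. These letters match the response element core on the opposite strand. Amino acid response elements bind ATF4, a factor known to induce Fgf21 in amino acid shortage. In the Fgf2 window the only match is a single GC box, 49 bases before the start. Of 32851 promoter windows, 13.6% hold the TATA box, 37.4% the CCAAT box, 35.7% the GC box, 7.15% the E-box and 3.97% the response element core. GC content is 58.0% for Fgf21 and 62.7% for Fgf2, against a median of 52.7% over all windows. A match is a run of letters and was not shown to be bound here.

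A probe is called detected where the scanner software marked its spots as well above background. This applied to 29434 of 55678 probes (52.9%) on the array labelled DKO and to 31704 (56.9%) on the Rac3-KO array. Before scaling, the 75th percentile of the processed signal (background-subtracted intensity) was 354 on the array labelled DKO and 705 on the Rac3-KO array, and levels below are log2 processed signal minus that of each array's 75th percentile. The spike-in RNAs differed the other way, by 1.07 (log2, DKO-labelled minus Rac3-KO). Of the calls among all measured genes, 53.8% were higher on the array labelled DKO, against 43.6% with scaling to the array median and 0.11% with scaling to the spike-ins. Scaling to the spike-ins moves every log2 difference below by -2.06 and leaving out the scaling by -0.99, so directions are relative to all probes, and every FGF pathway difference above 0 in this text turns below 0 on the spike-in scale. The Rac1 probes had signals of 12140 and 7078 on the array labelled DKO and of 19847 and 15327 on the Rac3-KO array, and after scaling log2 differences of 0.28 and -0.12, so neither was 2-fold lower on the scale used here, and Rac3 was detected on both arrays. The labels do not say which part of either gene was deleted, so these probes may lie outside it and then check nothing. All 10 keratinocyte markers examined were at least 2-fold lower on the array labelled DKO at the brightest probe of each gene. Their summed level, in multiples of the 75th percentile, was 226 there and 912 on the Rac3-KO array. The second probe of Trp63, also detected on both arrays, went the other way, at 0.43 (log2) against -1.80 at the brighter one. The second probes of Krt5, Krt10 and Dsp differed by -1.97, -5.04 and -1.38. All 10 skeletal muscle markers were at least 2-fold higher, with summed levels of 2531 and 471 on the same arrays, and all 8 fibroblast markers were above 0, with summed levels of 2592 and 1487. Before scaling, the summed fibroblast signal was lower on the array labelled DKO, at 918472 against 1048050, and on the spike-in scale all 8 were below 0. All of these 28 markers were detected on both arrays, so both samples held RNA of cells other than keratinocytes, and fewer cells of a type cannot be told apart from less RNA per cell. The other marker lists had median log2 differences of 1.03 (leukocytes), 0.72 (erythroid cells), 0.62 (endothelium), 0.57 (adipocytes), 0.10 (dermal papilla) and -0.68 (Schwann cells and melanocytes). The part of this mixture in the FGF values below was not tested.

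Of the 9 ligands, 6 were detected on both arrays and are called measured, Fgf20 and Fgf21 were detected on the Rac3-KO array alone, and Fgf22 on neither. Among the 6 measured ligands, 1 was higher by 2-fold or more on the array labelled DKO and 0 were lower by as much. The background for these counts is 7.71% of 14145 measured genes higher and 6.62% lower. The median log2 difference of the 6 ligands, DKO minus Rac3-KO, was 0.51, or -0.49 unscaled and -1.55 on the spike-in scale, against -0.01 over all measured genes. At the brightest probe of each gene, only the differences of Fgf1 and Fgf2 exceeded 1.96 times the software's own signal error, and those of the other 4 did not. The dimmer probe of Fgf18 also exceeded it. The share of all measured genes past this limit was not counted, so it does not set Fgf1 and Fgf2 apart from other genes. Of all named genes 1.15% were detected on the array labelled DKO alone and 4.26% on the Rac3-KO array alone.

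**Figure D1:**
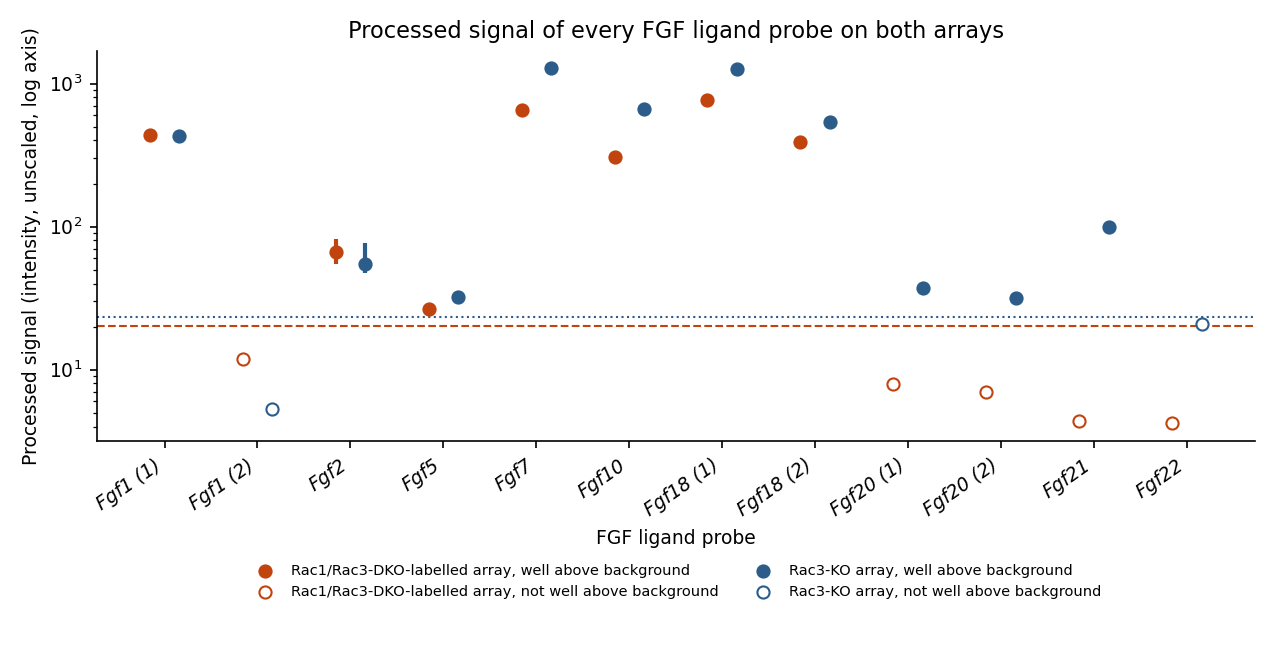
Processed signal (unscaled intensity, log axis) of the 12 probes of 9 FGF ligands, with the array labelled DKO left of the Rac3-KO array, filled where detected; vertical bars span repeated spots, (1) is the brighter probe of a gene, and the dashed and dotted lines are the lowest detected signals, 20.1 and 23.4. Fgf20 and Fgf21 are filled on the Rac3-KO array only and Fgf22 on neither.

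Fgf2, a ligand without a signal peptide that is stored in the extracellular matrix and acts on many mesenchymal cells, was the single ligand higher by 2-fold or more. Its probe was spotted 10 times on each array, which gives the value a technical spread. Processed signals of single spots ran between 54.5 and 81.7 on the array labelled DKO (10 spots) and between 47.7 and 77.3 on the Rac3-KO array (9 spots, 1 more being left out as marked by the software, at 317). These unscaled ranges overlap. Placed on the scale of the array labelled DKO through the 75th percentiles, the Rac3-KO spots ran between 24.0 and 38.9 and no longer overlapped the 54.5 to 81.7 of the DKO spots. The log2 level was -2.42 on the array labelled DKO and -3.69 on the Rac3-KO array, a difference of 1.27 with a standard error of 0.10 over spots and a software error of 0.27, or 2.42-fold higher. This difference holds no variation between samples of a group. It was 0.99 with normexp background correction, 0.28 unscaled and -0.79 on the spike-in scale, so the 2-fold call rests on the scaling and the background correction. None of 11 settings of scaling, background correction and probe choice gave a value above 1.27. Leaving out the marked Rac3-KO spot also raised the difference, since its 317 lies above all kept spots.

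**Figure D2:**
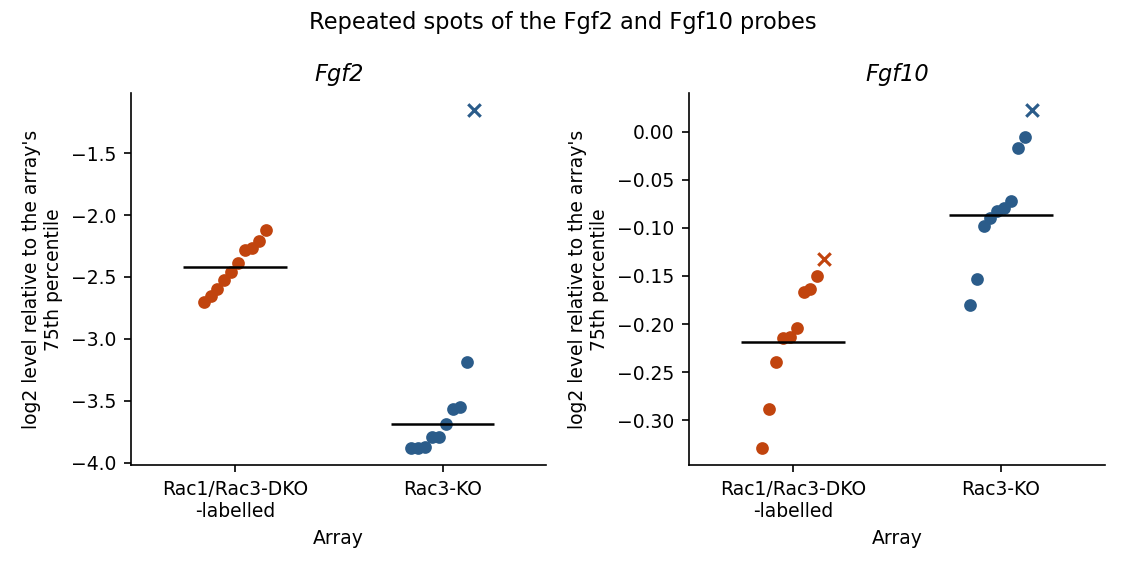
Log2 level of each repeated spot of the Fgf2 and Fgf10 probes relative to the array's 75th percentile, array labelled DKO left of Rac3-KO array; horizontal lines are means over the kept spots and crosses are spots marked as outliers. The kept Fgf2 spots of the arrays lie apart (means -2.42 and -3.69), and those of Fgf10 overlap (means -0.22 and -0.09).

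Fgf1, a broadly acting ligand that binds all FGF receptors, fell just short of 2-fold. Its brighter probe read 434 on the array labelled DKO and 433 on the Rac3-KO array before scaling, so the whole of its log2 difference of 0.996 (software error 0.21, 1.99-fold) came with the scaling. Its other probe was not detected on either array, at 11.8 and 5.28. Fgf5, the ligand whose loss gives the long-haired angora mouse, read 26.6 on the array labelled DKO and 32.0 on the Rac3-KO array, close to the lowest detected signals there, 20.1 and 23.4. Its log2 difference of 0.72 did not exceed 1.96 times its software error of 0.38. Fgf2 and Fgf5 belong to the 1685 measured genes with a mean signal under 100. These had a median difference of 0.24, and 12.7% of them were higher and 6.88% lower by 2-fold or more on the array labelled DKO. For the 5599 genes with a mean signal between 100 and 1000 the median was -0.08.

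**Figure D3:**
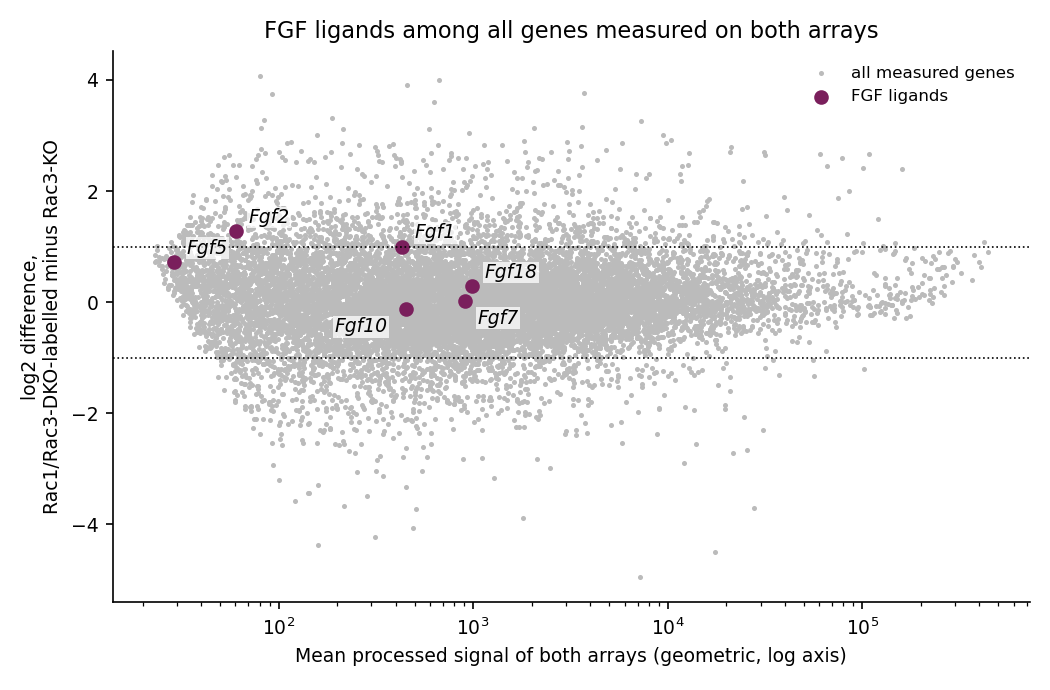
Log2 difference (DKO-labelled minus Rac3-KO) against the mean processed signal of both arrays (log axis) for all 14145 measured genes in grey and the 6 measured FGF ligands, with dotted lines at 2-fold. Fgf2 lies above the upper line at 1.27, Fgf1 on it, and Fgf7 and Fgf10 near 0.

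Fgf7 and Fgf10, the mesenchymal ligands of the epithelial receptor, stayed near 0 relative to all genes. Fgf7, keratinocyte growth factor, had a processed signal of 652 on the array labelled DKO and 1274 on the Rac3-KO array, and its log2 levels of 0.88 and 0.85 gave a difference of 0.03 (software error 0.20). Fgf10, needed for limb, lung and many epithelial buds, was read by 9 kept spots on each array. They ran between 282 and 319 on the array labelled DKO and between 622 and 702 on the Rac3-KO array, and after scaling the groups of spots overlapped. The log2 difference of Fgf10 was -0.13 with a standard error of 0.03 over spots and a software error of 0.21. It was below 0 under all 11 settings in which single ligands were recomputed, but did not exceed its software error as reported. These settings are not separate checks. Unscaled and spike-in values only subtract a constant, the single probe is its own mean over probes, and the deposited values use nearly the same scaling. Fgf18, a ligand of bone, cartilage and the resting hair follicle, had differences of 0.29 and 0.51 at its brighter and dimmer probe. The brighter probe read 770 and 1257, and the dimmer probe 387 and 540, on the DKO and Rac3-KO arrays. Both differences lay on the same side of 0, and they were less far apart than the 0.38 that is the root mean square SD between probes of a gene.

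Fgf21, the endocrine member, had a single probe, which was not detected on the array labelled DKO, with a processed signal of 4.35, and was detected on the Rac3-KO array, with 98.9. The raw spot brightness was 57.0 on the array labelled DKO, where the 308 negative control spots had a median of 48.5 and a 95th percentile of 57.0. On the Rac3-KO array it was 163, where the negative controls had a median of 48.5, a 95th percentile of 61.2 and a highest spot of 297. Against the lowest detected level on the array labelled DKO, Fgf21 was at least 2.47-fold lower there. A bound of 2-fold or more with detection on the Rac3-KO array only was reached by 0.953% of the named genes. The bound was 1.21-fold with normexp background correction, 4.92-fold unscaled and 10.3-fold on the spike-in scale. The measured log2 levels, -6.35 on the array labelled DKO and -2.83 on the Rac3-KO array, include a signal at the floor of the array labelled DKO and give no fold.

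Fgf20, a ligand of the hair placode and its dermal condensate, was detected by neither of its probes on the array labelled DKO and by both on the Rac3-KO array. The brighter probe read 7.96 on the array labelled DKO and 37.2 on the Rac3-KO array, and the dimmer probe 6.93 and 31.5. No fold can be given. The scaled Rac3-KO level of the brighter probe, -4.24, lies below the lowest detected level on the array labelled DKO, -4.14, so a signal of equal scaled size would not have been called detected there. With scaling by loess, to the spike-ins or not at all the bound came to 1.22-fold, 3.88-fold and 1.85-fold. Fgf22, a ligand of the epidermis and inner root sheath, was not detected on either array, at 4.20 on the array labelled DKO and 20.9 on the Rac3-KO array. Its raw brightness of 48.0 on the array labelled DKO was near the negative control median of 48.5, while that of 82.0 on the Rac3-KO array was above the negative controls' 95th percentile of 61.2. Fgf20 and Fgf21 were the ligands detected on the Rac3-KO array alone, and 10 of 10 keratinocyte markers were lower on the array labelled DKO. A link between these ligands and the markers was not tested.

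Fgf20 is expressed in the hair placode, and a list of 10 genes of early hair follicle formation, called placode genes here, was examined with it. Whether each is made by the placode itself was not checked. Of 7 measured placode genes 6 had a difference below 0 and 1 above, where 49.5% of all measured genes were above 0. By 2-fold or more 3 were lower and 0 higher, beside 6.62% lower and 7.71% higher over all measured genes. The median log2 difference of the 7 was -0.98. Edar, Dkk4 and Sox2, 3 of the 10 placode genes, were detected on the Rac3-KO array only, as were 4.26% of all named genes. Edar, the ectodysplasin receptor, read 21.9 on the array labelled DKO and 276 on the Rac3-KO array and was at least 6.35-fold lower. The Wnt antagonist gene Dkk4 was at least 4.25-fold lower and Sox2 at least 1.31-fold. The ligand gene Shh was 3.93-fold lower, the ectodysplasin adaptor gene Edaradd 3.82-fold and the transcription factor gene Lhx2 2.42-fold, with Lhx2 the brightest of the list. The genes known to regulate Fgf21 went in both directions. Of 6 measured, 1 was higher and 0 lower by 2-fold or more, where all measured genes gave 7.71% and 6.62%, and their median was 0.30. Ppara, the fatty acid sensor that induces Fgf21 in fasting liver, read 651 on the array labelled DKO and 561 on the Rac3-KO array and was 2.31-fold higher. Atf4, the brightest of the list, differed by -0.32 with a software error of 0.20.

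FGF receptors lay on both sides of 0. Among 6 measured receptors and co-receptors 1 was lower and 0 were higher by 2-fold or more (6.62% and 7.71% over all measured genes), and the median was 0.09. Fgfr3, a receptor of basal keratinocytes and cartilage, had signals of 2288 on the array labelled DKO and 9978 on the Rac3-KO array and was 2.19-fold lower, and its other probe differed by -1.07 (log2). Fgfr2, whose epithelial form binds Fgf7 and Fgf10, differed by -0.95 at its brightest probe (428 and 1645) and by -1.28 at the probe spotted 10 times (184 and 886), and the probes were not assigned to its splice forms. Fgfr4 had probes on both sides of 0, at -0.23 and 0.82. Fgfr1, the main receptor of mesenchymal cells, differed by 0.40, 0.33 and 0.13 at its 3 probes, and Fgfrl1, a receptor without a kinase, by 0.86. Klb, the co-receptor of Fgf21, read 291 on the array labelled DKO and 390 on the Rac3-KO array, a difference of 0.57 with a software error of 0.21. Kl, the co-receptor of the mineral hormone Fgf23, was not detected on either array.

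**Figure D4:**
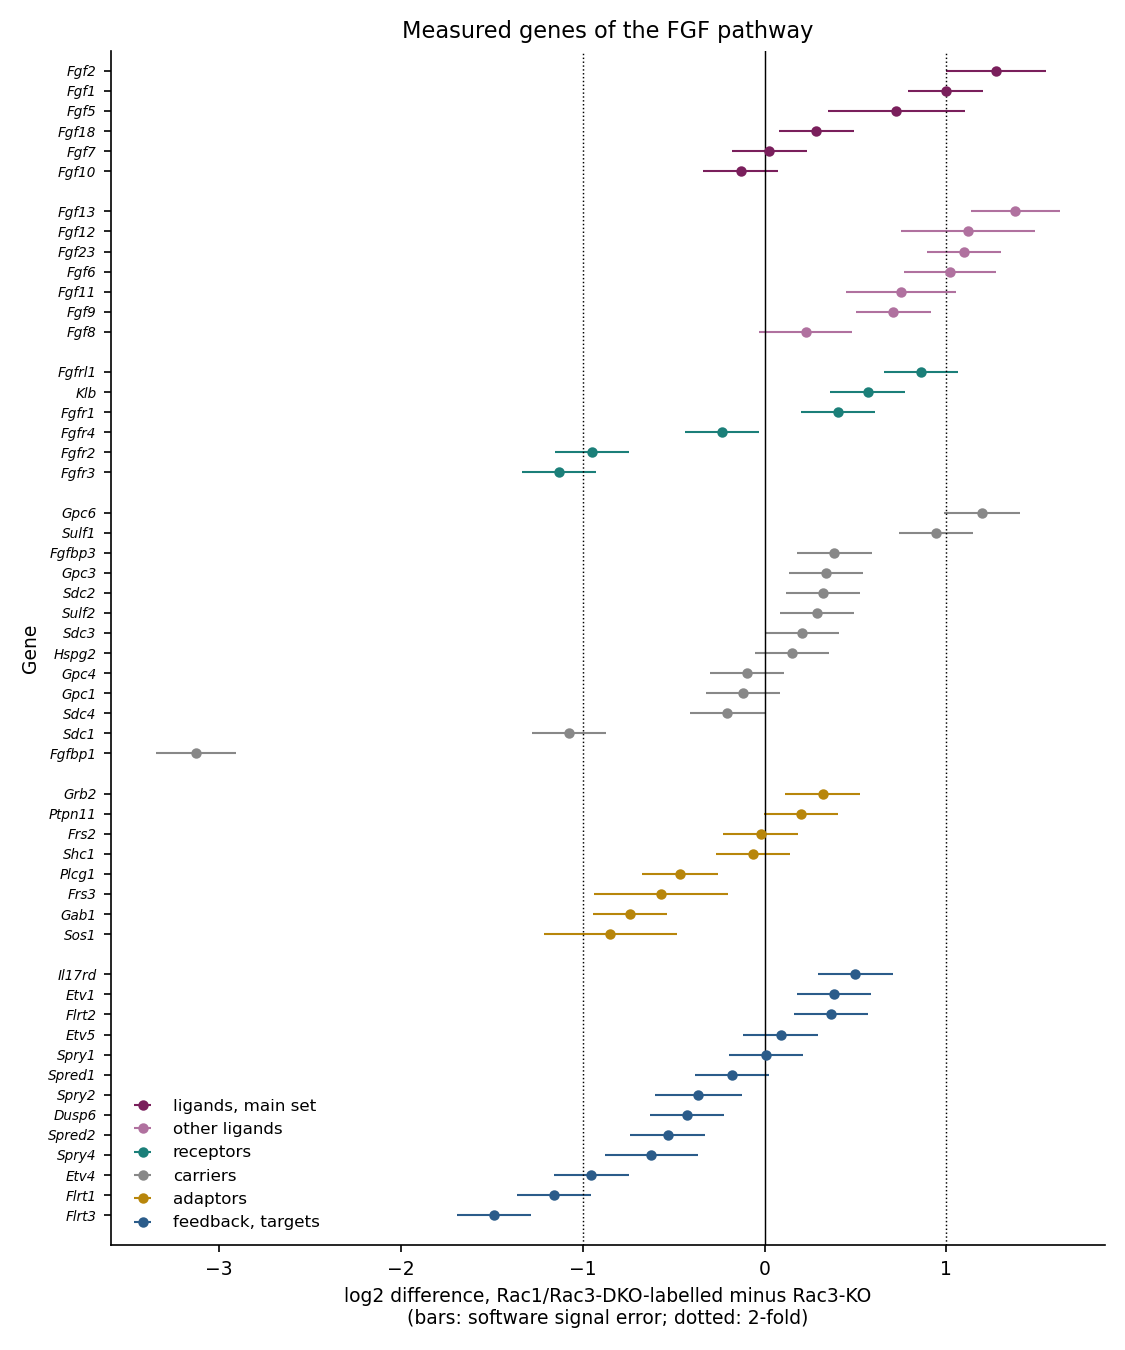
Log2 difference (DKO-labelled minus Rac3-KO) of every measured gene in 6 lists of the FGF pathway, grouped by role, with the software's signal error as bars and 2-fold as dotted lines. Fgfbp1 stands lowest at -3.13, Fgfr2 and Fgfr3 lie near the lower dotted line, and 5 of the 6 main ligands lie above 0.

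Proteins that hold FGFs outside the cell showed the lowest value in these lists. Among 13 measured FGF-binding proteins and heparan sulfate carriers 2 were lower and 1 was higher by 2-fold or more, against 6.62% and 7.71% of all measured genes, and the median was 0.21. Fgfbp1, a secreted protein that frees stored FGFs from the matrix, read 82.4 on the array labelled DKO and 1430 on the Rac3-KO array and was 8.73-fold lower. Sdc1, the main syndecan of keratinocytes, was 2.11-fold lower and the glypican gene Gpc6 2.29-fold higher. Gpc2, detected on the Rac3-KO array only, was at least 3.04-fold lower, and Gpc3, the brightest of the list, differed by 0.34. Of the 8 receptor adaptors 0 were lower and 0 higher by 2-fold or more, beside 6.62% and 7.71% of all measured genes. The adaptor median was -0.27, and the brightest, the phosphatase gene Ptpn11, differed by 0.20. Of the measured carriers 5 were below 0 and 8 above, and of the measured receptors and co-receptors 3 were below and 3 above. Keratinocyte markers were lower in 10 of 10, and a link of these markers to Fgfbp1, Sdc1, Fgfr2 or Fgfr3 was not tested.

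Feedback inhibitors and targets of FGF signalling were below 0 in 8 of 13 measured genes, with a median of -0.36. The other 5 were above 0, beside 49.5% of all measured genes. Of these 13, 2 were lower and 0 higher by 2-fold or more, against 6.62% and 7.71% of all measured genes. Keratinocyte markers were lower in 10 of 10, and a link of the markers to these 13 genes was not tested. Both lower genes are adhesion proteins that bind FGF receptors: Flrt3 read 1676 on the array labelled DKO and 9358 on the Rac3-KO array and was 2.81-fold lower, and Flrt1 was 2.23-fold lower. The 3 Flrt3 probes differed by -1.49, -0.96 and -1.18. The 3 Flrt1 probes differed by -1.16, -0.97 and -0.77, so only its brightest probe was 2-fold apart. Spry1, the Sprouty inhibitor with the brightest level of the list, differed by 0.01, and its signals were 4779 and 9449 on the DKO and Rac3-KO arrays. The ETS factors, which were chosen for naming after their values were seen, were within 2-fold at the probe that represents each gene. Etv4 had signals of 892 on the array labelled DKO and 3433 on the Rac3-KO array and a difference of -0.95, with -1.46 at its dimmer probe, and Etv5 differed by 0.09.

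**Figure D5:**
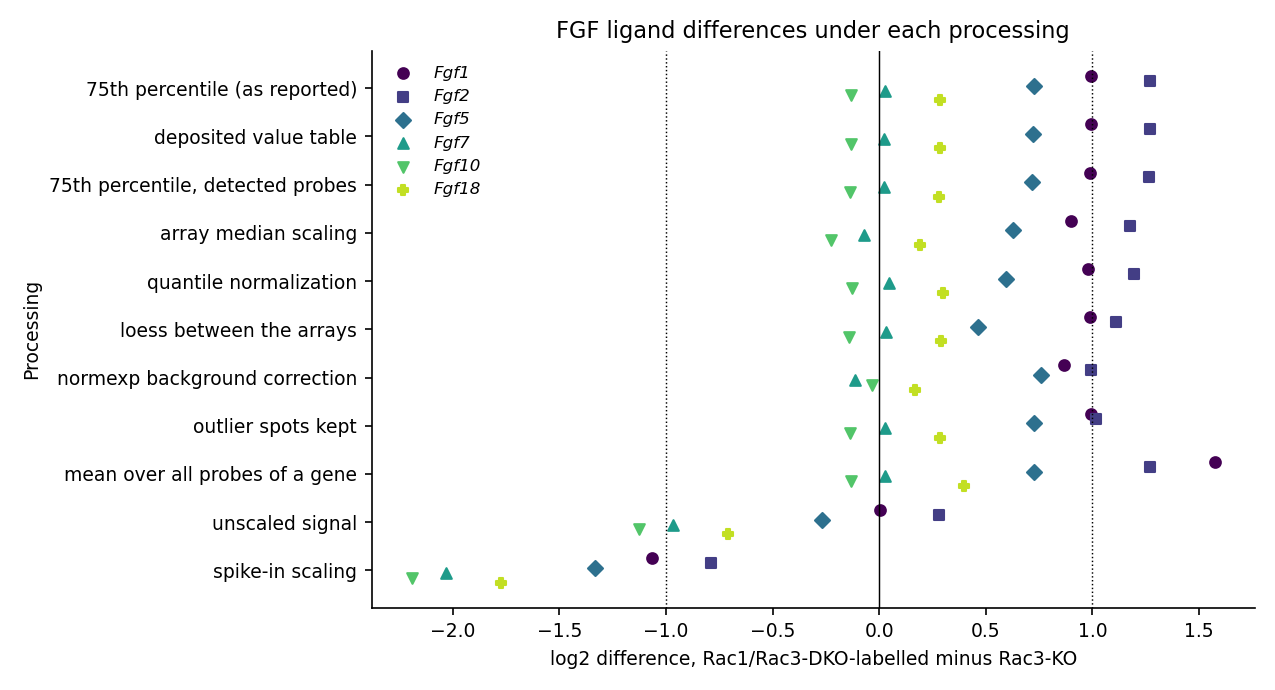
Log2 difference (DKO-labelled minus Rac3-KO) of the 6 measured FGF ligands under 11 settings of scaling, background correction and probe choice, with dotted lines at 2-fold. Fgf10 lies below 0 in all 11, Fgf2 lies above 2-fold in 8, and all 6 ligands lie below 0 on the spike-in scale.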

How the data were processed

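The deposited scanner files hold Cy3 intensity from 1 array per sample. Per the file headers, the software was Feature Extraction 10.10.1.1, while the submitters' processing notes name version 9.1. Slide and scan were shared by the arrays, per the file headers. The table of values that the authors deposited is in log2 units, and is the processed signal's log2 less a constant close to the array's 75th percentile, within 0.001 for 100% of probes spotted once; its column medians are -3.62 (DKO) and -3.72 (Rac3-KO). From the intensities, each probe received the mean log2 processed signal of its spots after control spots and outlier spots (190 and 155 on the DKO and Rac3-KO arrays) were left out, and the 75th percentile was subtracted. No spot was saturated. A probe counted as detected when at least 0.5 of its spots were well above background. Accessions were matched to the GRCm38.p6 RefSeq table for names only, since the array design names mm9. The brightest probe on average represented a gene. An at-least fold sets the detected level against the undetected probe's own level or the lowest detected level of that array, whichever is higher. The software's signal error and the spread over spots are technical. The named genes are the 9 ligands; the other FGF ligands, receptors and co-receptors detected on either array; and, of the other lists, up to 4 genes each way at 2-fold or more and the brightest. Of each marker list the 2 brightest genes were recomputed under the alternatives. The ligands and lists were chosen with earlier results of these data known. For normexp (limma 3.58.1, R 4.3.3, offset 50), the median spot and background signals were used. The procedure was tested on simulated data. Other work used Python 3.11.15.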

Additional observations from a re-analysis of the deposited data

How the results depend on the processing

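No paired analysis was possible because each group has 1 array, and for the same reason no replicate could be left out. Of the ligands, the count at least 2-fold higher, 1 as reported, was 0 with normexp, a 3-fold threshold, spike-in scaling or unscaled signal, 2 with the mean over probes and 3 at a 1.5-fold threshold. The count at least 2-fold lower, 0 as reported, was 3 with no filter on dim probes, 5 on the spike-in scale and 1 unscaled. Their median of 0.51 became 0.026 with no filter, 0.29 with the stricter filter, -1.55 on the spike-in scale and -0.49 unscaled. For the receptors the lower count, 1 as reported, was 2 with normexp, array median scaling, the mean over probes or 1.5-fold, 0 at 3-fold, 6 on the spike-in scale and 3 unscaled. The receptor count higher, 0 as reported, was 1 with no filter and at 1.5-fold. The receptor median of 0.09 was 0.40 with no filter, 0.29 with the mean over probes, -1.97 on the spike-in scale and -0.91 unscaled. For feedback and target genes the lower count of 2 was 4 at 1.5-fold, 0 at 3-fold, 13 on the spike-in scale and 8 unscaled, and the median of -0.36 was -0.15 with normexp, -2.42 on the spike-in scale and -1.36 unscaled. Unscaled and spike-in values differ from those reported by a constant, -0.99 and -2.06, and thresholds and filters change only which genes count. For the other changes the cause was not tested. On the spike-in scale differences at least 2-fold above 0 turned below 0: Fgf2 to -0.79, Fgf12 to -0.94, Fgf13 to -0.68, Fgf23 to -0.97, Fgf6 to -1.04, Gpc6 to -0.86, Ppara to -0.85, Cldn5 to -0.99, Csf1r to -0.61, Itgam to -0.90, Kdr to -0.89 and Lepr to -0.79, and the median of the other FGF ligands to -1.04. With the mean over probes Lepr became -0.010. The spike-in scale, loess and unscaled signal were chosen after seeing the data, as was running the alternatives on the other lists. Signals near the floor limit what can be said of Fgf5, Fgf20, Fgf21 and Fgf22.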

Other observations

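The FGF genes outside the main set were all above 0 where measured, relative to the 75th percentile, while on the spike-in scale all were below 0, with a median of -1.04, and unscaled Fgf8, Fgf9 and Fgf11 were, at -0.77, -0.28 and -0.24. Of 13 such genes 7 were detected on both arrays, 4 of them higher by 2-fold or more on the array labelled DKO and 0 lower, beside 7.71% higher and 6.62% lower over all measured genes. The median log2 difference of the 7 genes was 1.02, and 49.5% of all measured genes were above 0. Of these 7, 5 had a mean signal under 100, where 12.7% of measured genes were at least 2-fold higher. Fgf13, an intracellular FGF homologous factor that binds sodium channels, read 97.8 on the array labelled DKO and 74.9 on the Rac3-KO array and was 2.60-fold higher. Fgf12, of the same subfamily, was 2.17-fold higher at a probe spotted 10 times, and Fgf11 differed by 0.75. Fgf6, a ligand of skeletal muscle, had signals of 66.3 and 65.0 on the DKO and Rac3-KO arrays, 1.02-fold unscaled, and was 2.03-fold higher after scaling. All 10 muscle markers were at least 2-fold higher after scaling, and their summed unscaled signal was 896741 and 332290 on the same arrays. A link between Fgf6 and these markers was not tested. Fgf9 and Fgf8 differed by 0.71 and 0.23. Fgf14 was detected on the array labelled DKO alone, at 26.6 against 15.3 on the Rac3-KO array, and at least 2.26-fold higher. Its raw spot brightness was 75 on both arrays. Its other probes were detected on neither array, at 10.3 and 4.24 on the array labelled DKO and 21.8 and 5.17 on the Rac3-KO array.

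The probes of Fgf23, a mineral hormone of bone, did not show the same thing. A probe with signals of 9161 on the array labelled DKO and 8531 on the Rac3-KO array gave a log2 difference of 1.09, while the other probe was not detected on either array, at 4.08 and 9.92. Which transcript the bright probe reads was not examined here.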
